A study of Mus musculus with 83 samples.

Results

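The miR-34 family of microRNAs (miRNAs) was followed through the small RNA libraries of a *Dnmt1* deletion experiment in mouse embryonic stem cells (ESCs). The family was selected by name, as the features *Mir34a*, *Mir34b* and *Mir34c*, with their levels in these libraries already known. It makes up 3 of the 1577 miRNA features and 3 of the 32101 features of all kinds in the table. No threshold on a measured value was applied, and all 3 members passed the filter on low values in both fits described below.

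DNMT1 is the enzyme that copies DNA methylation onto new strands at replication, and its loss removes methylation passively as cells divide. According to the study's methods, *Dnmt1* was flanked by loxP sites and cut out by a Cre recombinase in a single ESC line. Cre was induced with tamoxifen. Whether the control cells of these libraries also received tamoxifen is not stated in the sources used here. Any part of the treatment or of Cre in the differences was not tested. The labels name the background E14, whereas the methods describe a C57BL/6 line, grown in serum with LIF, with or without feeder cells. Control and Dnmt1 KO cells of days 1, 3, 6, 9, 11 and 25 gave 3 libraries per group (36 in all). AGO2 immunoprecipitates, in which the Argonaute protein that carries miRNAs was pulled down, gave 4 libraries per genotype. The labels give these no day, and the study describes a pull-down on day 9. Single libraries came from primordial germ cells (PGCs, C57BL/6 embryos) of both sexes at E13.5 and E14.5, the stages after germ cells have lost most of their DNA methylation, and 2 libraries were labelled "none". Groups followed the sample titles, because some tags contradict them (cell type in the PGC libraries, genotype elsewhere). In all 8 AGO2 libraries, both "none" libraries and the R1-suffixed libraries of days 1 to 9 (a further set of files with the same names), the genotype tag is the reverse of the title. Directions in those libraries therefore rest on the titles alone, whereas titles and tags match in the 36 time course libraries. Nothing in the labels ties a library to a separate culture, so the spread between replicates may be technical, and the 4 AGO2 libraries per genotype may hold only 2 biological replicates.

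In textbook terms, the miR-34 family is a direct target of the tumour suppressor p53. *Mir34a* is transcribed on its own, whereas *Mir34b* and *Mir34c* come from a shared primary transcript. The mature miRNAs restrain the cell cycle and promote cell death through targets such as cyclin-dependent kinases and BCL2, and the promoters of both loci are known to be silenced by methylation in tumours. miR-34b and miR-34c are abundant in testis and in ciliated epithelia, where the related miR-449 miRNAs share their targets.

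*Mir34a* (ENSMUSG00000065493.1) lies on the plus strand of chromosome 4 at chr4:149442563-149442664 of NCBIM37, in no annotated gene. Its nearest neighbours are *Gm13067*, 11477 bases to the left, and *Gpr157*, 18809 bases to the right. *Mir34c* (ENSMUSG00000065587.1, chr9:50911139-50911215) and *Mir34b* (ENSMUSG00000065492.1, chr9:50911667-50911750) lie 451 bases apart on the minus strand of chromosome 9, also outside other annotated genes. The gene *4833427G06Rik* is 955 bases from *Mir34c*, and *Btg4* is 12355 bases beyond *Mir34b*.

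The mature sequences show why these loci are grouped as a family and where the members differ. They are given as RefSeq lists them (GRCm38.p6), with the seed (bases 2 to 8, the part that pairs with targets) in capitals. The 5p strands of miR-34a and miR-34b and those of the relatives miR-449a and miR-449c hold the same seed, and these were the only 4 of the 1738 mature sequences listed there to do so (miR-34c-5p, a textbook member of the same seed family, is not shown):
mmu-miR-34a-5p: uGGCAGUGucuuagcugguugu
mmu-miR-34b-5p: aGGCAGUGuaauuagcugauugu
mmu-miR-449a-5p: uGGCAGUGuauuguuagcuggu
mmu-miR-449c-5p: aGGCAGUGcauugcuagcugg

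On the 3p strand, miR-34b and miR-34c hold a second common seed that no other mature sequence of the table had, and miR-34a-3p holds a different one:
mmu-miR-34b-3p: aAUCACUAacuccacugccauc
mmu-miR-34c-3p: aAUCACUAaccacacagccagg
mmu-miR-34a-3p: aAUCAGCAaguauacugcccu

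Counted from base 1, miR-34b-3p and miR-34c-3p had the same base at 17 of 22 positions, and miR-34a-5p and miR-34b-5p at 11 of 22. The table counts reads over a whole hairpin, so the strands cannot be told apart in the values below. No other of the 1577 miRNA features held a stretch of 20 bases in common with any of the 3 hairpins, so reads of 20 to 24 nt that match a member exactly match no other miRNA feature in the table.

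Values are given as RPM, the reads of a feature scaled to 1000000 reads of its library, and levels of different members are compared only as RPKM, which divides by the length of the hairpin. Depth ran from 870481 to 6239008 reads on days 1 to 11, from 521066 to 815523 on day 25, from 1152390 to 11520126 in AGO2 Dnmt1 KO, from 11497724 to 25422978 in AGO2 control and from 1734576 to 3435993 in PGCs. In the 36 time course libraries, *Mir34c* rested on 507 to 15732 reads, *Mir34a* on 137 to 2885 and *Mir34b* on 24 to 904, so that *Mir34b* on day 25 is the least precise value. The miR-290 and miR-302 miRNAs that mark ESCs were read in all 12 groups (10 of 10 features, summed to between 108257 and 206156 RPM per library).

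*Mir34c* was the most abundant member throughout. By mean RPKM it ranked between 31 and 48 among the miRNA features in the 12 groups, *Mir34a* between 76 and 101 and *Mir34b* between 115 and 163. In day 1 control libraries the levels were 17125 ± 449 RPKM for *Mir34c*, 3685 ± 93.9 for *Mir34a* and 897 ± 167 for *Mir34b* (mean ± SD, n = 3). The members of the pair on chromosome 9 therefore differed in level by 19.6 ± 3.80 times, although they lie within the same short stretch. That ratio stayed between 19.6 and 24.1 in the 10 group means of days 1 to 11.

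*Mir34c* was higher in Dnmt1 KO than in control cells on each of days 1 to 11, by 1.15 to 1.62 times, and no Dnmt1 KO library of these days overlapped with the control libraries of its day. *Mir34b*, its neighbour, was higher without overlap on days 3, 6, 9 and 11. Of all features tested, 20.3% (day 1) to 44.9% (day 6) were apart in either direction on days 1 to 11. *Mir34a* differed less and not on every day. On day 25 the groups of *Mir34c* overlapped and the other two members were lower in Dnmt1 KO. These differences were known when the family was chosen, so the tests below describe how each member stood among all features and are not independent support.

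**Figure D1:**
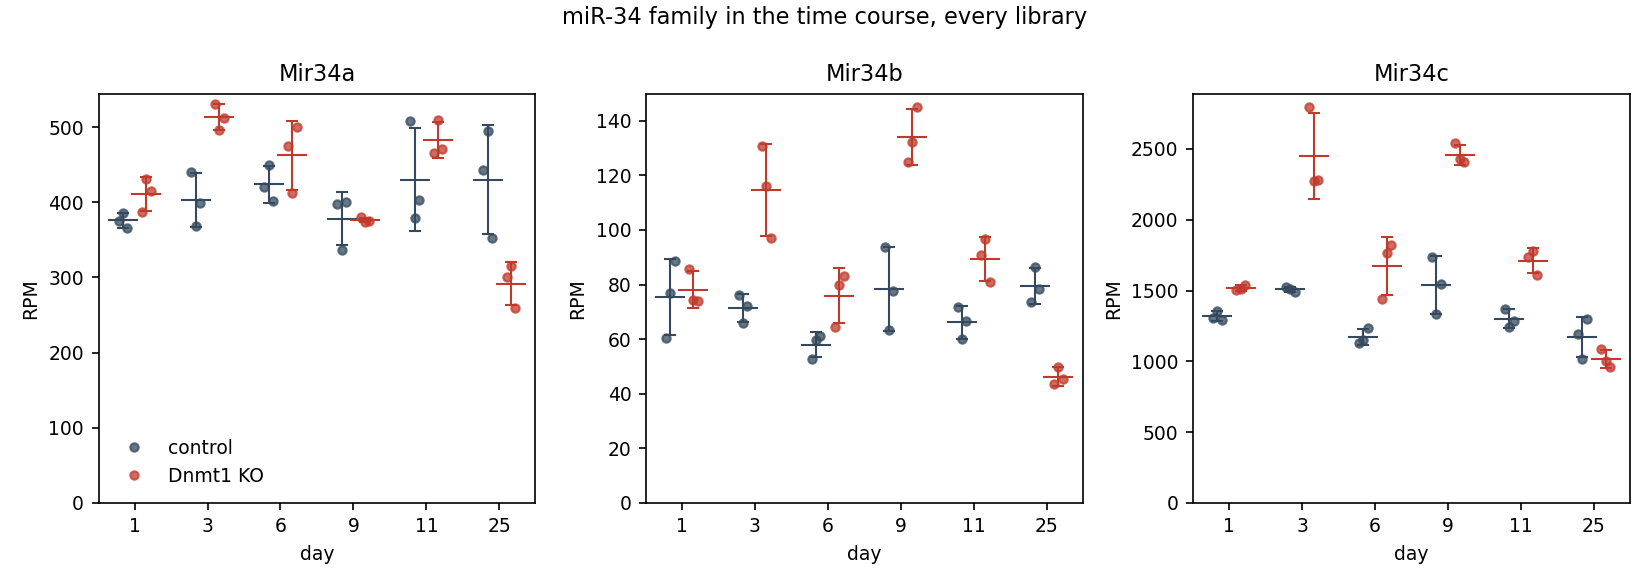
RPM of each member in every time course library (y axis, linear from 0) by day (x axis, categories). Points are libraries, horizontal marks are means and bars are 1 SD (n = 3 per group). For *Mir34c* the Dnmt1 KO points lie above all control points of their day on days 1 to 11 and overlap with them on day 25.

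On day 1 the 3 Dnmt1 KO libraries held 1503, 1511 and 1542 RPM of *Mir34c*, against 1306, 1358 and 1292 RPM in control. The groups stood apart by a small step of 1.15-fold, as did those of 20.3% of all 2582 features tested on that day. On the log2(RPM + 1) scale after TMM scaling (a correction for the make-up of each library), the difference was 0.11 ± 0.10 (SE, adjusted p = 0.69), and it was not called. *Mir34a* held 387, 431 and 415 RPM in Dnmt1 KO and 375, 386 and 366 RPM in control, and *Mir34b* 85.9, 74.5 and 73.9 against 60.6, 77.0 and 88.5 RPM. The ranges of *Mir34a* were apart by a narrow margin and those of *Mir34b* overlapped, and neither was called (0.04 ± 0.12, adjusted p = 0.94, and −0.02 ± 0.15, adjusted p = 0.97). On that day 2.87% of features were called higher in Dnmt1 KO by limma at an adjusted p under 0.05, and no member had an unadjusted p under 0.05.

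On day 3 all 3 members were higher in Dnmt1 KO. *Mir34c* held 2799.5, 2272 and 2281 RPM against 1525, 1511 and 1492 RPM in control, a 1.62-fold step that exceeded the whole range of both groups. *Mir34b* held 131, 116 and 97.2 RPM against 76.0, 65.8 and 72.0 RPM, and *Mir34a* 531, 496 and 512 RPM against 441, 369 and 399 RPM. The groups did not overlap for any member, and 26.3% of all features were apart in this way. The log2 differences were 0.71 ± 0.10 for *Mir34c* (adjusted p = 2.9e-06), 0.69 ± 0.15 for *Mir34b* (adjusted p = 0.0019) and 0.37 ± 0.12 for *Mir34a* (adjusted p = 0.0498), where 4.49% of all features were called higher. The median log2 difference of the miRNA features tested was 0.24 on this day. The call of *Mir34a* rested on each of the 6 libraries: without any single one its adjusted p was 0.0601 to 0.276. The R1-suffixed libraries gave *Mir34b* 0.81 ± 0.24 with an adjusted p of 0.0515.

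On day 6 *Mir34c* held 1441, 1764 and 1819 RPM in Dnmt1 KO and 1129.7, 1147 and 1237 RPM in control. The groups were apart, and Dnmt1 KO replicate 1 was the lowest of its group. The log2 difference was 0.40 ± 0.10 (adjusted p = 0.0019), on a day when 13.7% of features were called higher. Without Dnmt1 KO replicate 3 it was 0.25 (adjusted p = 0.0934). *Mir34b* held 64.3, 80.0 and 83.2 RPM against 52.8, 59.8 and 61.2 RPM, and *Mir34a* 475, 412 and 501 RPM against 421, 450.3 and 401 RPM. *Mir34b* was apart, as were 44.9% of features, without passing the test (0.27 ± 0.15, adjusted p = 0.19), and *Mir34a* overlapped (0.02 ± 0.12, adjusted p = 0.95).

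On day 9 the pair on chromosome 9 was again higher in Dnmt1 KO, whereas *Mir34a* overlapped. *Mir34c* held 2541, 2430.2 and 2410.2 RPM in Dnmt1 KO against 1739, 1332 and 1549 RPM in control, and *Mir34b* held 125, 132 and 145 RPM against 93.8, 63.3 and 77.8 RPM. Both were apart, as were 44.2% of features on that day. *Mir34a* held 379.9, 374 and 375 RPM against 397, 337 and 401 RPM, so that its Dnmt1 KO libraries lay inside the control range. *Mir34b* rose by 0.90 ± 0.15 (adjusted p = 8.3e-06) and *Mir34c* by 0.80 ± 0.10 (adjusted p = 2e-08) on the log2 scale, and *Mir34a* differed by 0.11 ± 0.12 (adjusted p = 0.60). Of all features, 12.3% were called higher. The median log2 difference of the 291 miRNA features tested was 0.32 on this day and 0.09 over all features.

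On day 11 *Mir34c* held 1739, 1781 and 1611 RPM in Dnmt1 KO against 1373, 1244 and 1287 RPM in control, and *Mir34b* 90.6, 96.8 and 80.8 RPM against 71.9, 59.9 and 66.7 RPM. Both were apart, as were 36.4% of features, by smaller steps than on day 9. *Mir34c* differed by 0.48 ± 0.10 (adjusted p = 0.00045) and *Mir34b* by 0.51 ± 0.15 (adjusted p = 0.0196), where 6.27% of features were called higher. *Mir34a* held 466, 509.8 and 472 RPM against 508, 379.7 and 403 RPM, which overlap, and was not called (0.26 ± 0.12, adjusted p = 0.24). The median log2 difference of the miRNA features tested was 0.24 on this day. The call of *Mir34b* was lost without Dnmt1 KO replicate 1 (adjusted p = 0.0909), Dnmt1 KO replicate 2 (0.102), control replicate 2 (0.137) or control replicate 3 (0.065), with log2 differences of 0.44 to 0.51. It was also lost on the deposited RPM without TMM scaling (0.43, adjusted p = 0.0578).

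Day 25 went the other way. *Mir34b* held 43.4, 49.9 and 45.5 RPM in Dnmt1 KO and 73.5, 86.4 and 78.5 RPM in control, which is 0.583 times the control mean on 24 to 64 reads per library. *Mir34a* held 301, 315 and 259.6 RPM against 443, 495 and 352 RPM, or 0.679 times. Both were apart and lower in every Dnmt1 KO library, and 30.8% of features were apart on this day. *Mir34b* fell by 0.66 ± 0.15 (adjusted p = 0.00052) and *Mir34a* fell by 0.44 ± 0.12 (adjusted p = 0.0032) on the log2 scale, and 17.0% of features were called lower. When day 25 was fitted alone, the adjusted p of *Mir34a* was 0.0747. *Mir34c* held 1087, 1000.3 and 961 RPM against 1196, 1017 and 1299 RPM, and its groups overlapped (−0.09 ± 0.10, 95% confidence interval −0.29 to 0.11, adjusted p = 0.51). The median log2 difference over the miRNA features tested was −0.20 on that day. The summed ESC markers were also lower, at 134150 to 138963 RPM in Dnmt1 KO against 172945 to 206156 RPM in control, with 0 of 10 features higher in the Dnmt1 KO mean. The part of this shift in the differences of the members was not tested.

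**Figure D2:**
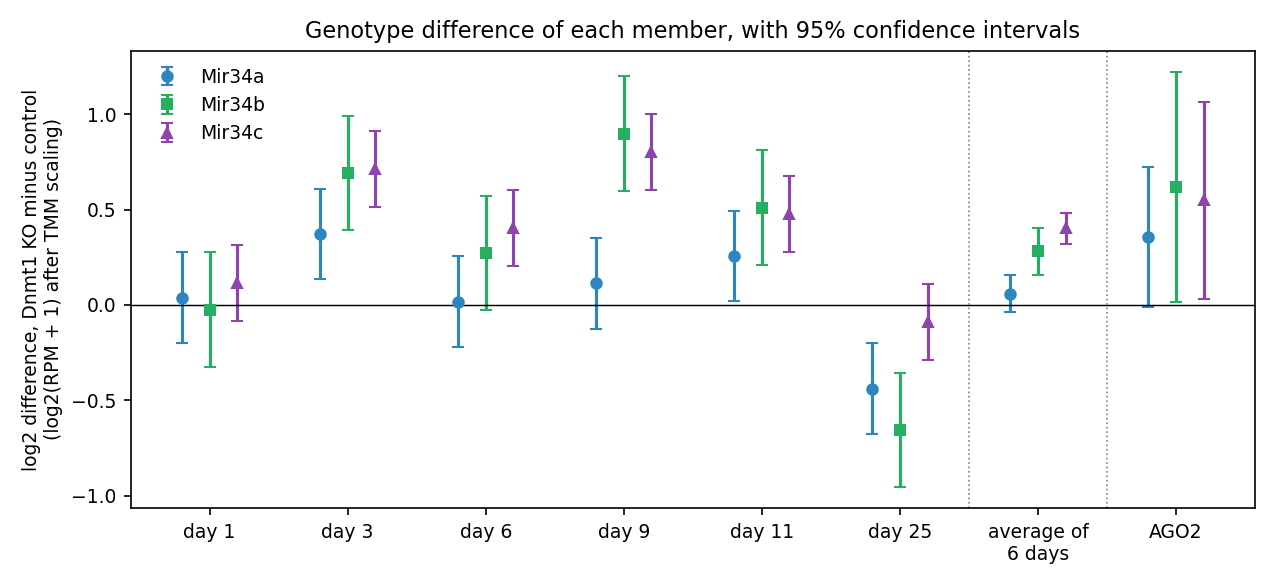
Log2 difference between Dnmt1 KO and control (y axis, log2(RPM + 1) after TMM scaling) of each member on each day, averaged over the 6 days and in AGO2 libraries (x axis). Points are estimates and bars are 95% confidence intervals from the fits across all features. *Mir34b* and *Mir34c* lie above 0 on days 3, 9 and 11, whereas on day 25 *Mir34a* and *Mir34b* lie below it.

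Averaged over the 6 days, *Mir34c* was higher in Dnmt1 KO by 0.40 ± 0.04 on the log2 scale (adjusted p = 6.8e-11) and *Mir34b* by 0.28 ± 0.06 (adjusted p = 0.00031), and *Mir34a* differed by 0.06 ± 0.05 (adjusted p = 0.39). In this average 16.6% of features were called higher and 10.1% lower. The median log2 difference of the miRNA features tested was 0.12 in the average, −0.05 on day 1 and 0.11 on day 6. On the deposited RPM, with labels permuted within each day, the mean difference was 470.1 RPM for *Mir34c* (permutation p = 3e-05, higher on 5 of 6 days), 18.3 RPM for *Mir34b* (p = 0.0066, 5 of 6 days) and 16.1 RPM for *Mir34a* (p = 0.39, 4 of 6 days). These 3 permutation tests are two-sided. Over days 1 to 11 alone the mean difference of *Mir34a* was 46.9 RPM (permutation p = 0.0023, higher on 4 of 5 days). Day 25 was left out after its values had been seen, so this p is a description. Without TMM scaling the median log2 difference of all features was 0.10, −0.04, 0.23, −0.02 and −0.13 on days 1, 3, 6, 9 and 11. After TMM scaling *Mir34a* differed by 0.04 on day 1 and 0.02 on day 6, and of these days only day 3 was called. On the deposited RPM, the average of *Mir34a* over the 6 days thus joins a higher mean on 4 of the first 5 days with a lower one on day 25.

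The difference between Dnmt1 KO and control was tested for a change over time. From day 11 to day 25 the log2 difference fell by 1.17 ± 0.21 for *Mir34b* (adjusted p = 4.7e-05), fell by 0.70 ± 0.17 for *Mir34a* (adjusted p = 0.0019) and fell by 0.57 ± 0.14 for *Mir34c* (adjusted p = 0.0026), in a comparison where 9.84% of features were called lower. The median change of the miRNA features tested was −0.27. A moderated F test of all 6 days gave adjusted p-values of 1e-06 for *Mir34b*, 6.6e-06 for *Mir34c* and 0.003 for *Mir34a*, with 34.8% of features called. Both tests were added after the values had been seen. From day 1 to day 11 no member was called by limma, although *Mir34b* and *Mir34c* had unadjusted p-values of 0.015 and 0.013, and 6.04% of features were called higher. The change was 0.53 ± 0.21 for *Mir34b* (adjusted p = 0.12), 0.36 ± 0.14 for *Mir34c* (adjusted p = 0.11) and 0.22 ± 0.17 for *Mir34a* (adjusted p = 0.57). The median change was 0.32 over the miRNA features tested and −0.06 over all features. *Mir34b* passed without day 1 control replicate 1 (0.71, adjusted p = 0.0244) or day 11 Dnmt1 KO replicate 3 (0.69, adjusted p = 0.0475), and *Mir34c* passed without the latter (0.49, adjusted p = 0.0255).

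In control cells the family kept a narrow range over the 25 days. The control group means ran from 376 to 430.3 RPM for *Mir34a*, from 57.9 to 79.4 RPM for *Mir34b* and from 1170.5 to 1539.8 RPM for *Mir34c*. Between day 1 and day 11 no member was called by limma (−0.18 to 0.17 on the log2 scale, adjusted p = 0.28 to 0.83, none with an unadjusted p under 0.05), where 34.9% of all features were. Between day 1 and day 25 *Mir34c* fell by 0.31 ± 0.10 (adjusted p = 0.0074), among the 28.1% of features called lower, and *Mir34a* and *Mir34b* were not called (0.05 and −0.04). The call of *Mir34c* was lost on the deposited RPM (−0.18, adjusted p = 0.12), and without day 25 control replicate 2 (−0.20, adjusted p = 0.115). The median log2 difference of the miRNA features tested was −0.57 in that comparison.

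Ordered by mean RPM over the 12 groups, *Mir34c* and *Mir34b* were both highest in Dnmt1 KO of day 9 and next in Dnmt1 KO of day 3, and the libraries of these 2 groups overlapped. Both then stood apart from the next in order, Dnmt1 KO of day 11. For *Mir34a* the order ran from Dnmt1 KO of day 3 (513 ± 17.6 RPM) down to Dnmt1 KO of day 25 (292 ± 28.8 RPM), and each neighbour in the first 11 places overlapped with the next. Dnmt1 KO of day 25 was last for all 3 members. The highest group mean was 2.90 times the lowest for *Mir34b*, 2.42 times for *Mir34c* and 1.76 times for *Mir34a*, whereas over the control groups alone these ratios were 1.37, 1.32 and 1.14.

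Within a library, the ratio of 2 members does not depend on scaling. The log2 ratio of *Mir34c* to *Mir34a* was higher in Dnmt1 KO than in control on all 6 days, by 0.08 to 0.69, and by 0.34 on average (permutation p = 1e-05, the smallest these permutations can give). On day 9 the RPKM ratio was 8.66 ± 0.18 in Dnmt1 KO and 5.38 ± 0.36 in control (n = 3). The ratio of *Mir34b* to *Mir34a* was higher on 4 of 6 days (0.22 on average, permutation p = 0.011). For the neighbours *Mir34c* and *Mir34b* the difference was 0.12 (permutation p = 0.06), and it was largest on day 25, where the RPKM ratio was 24.1 ± 2.87 in Dnmt1 KO and 16.2 ± 2.92 in control. These 3 ratio tests were two-sided and added after the values had been seen.

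**Figure D3:**
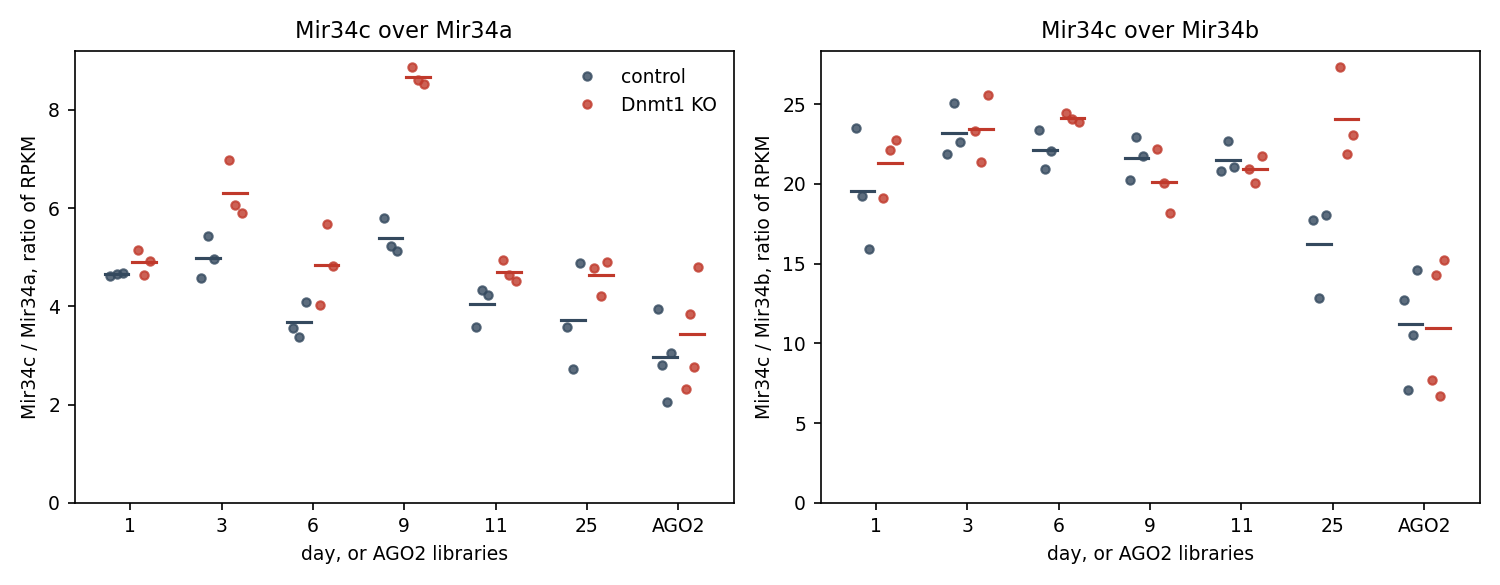
Ratio of the RPKM of *Mir34c* to that of *Mir34a* (left) and of *Mir34b* (right) in every library (y axes, linear from 0), by day and in AGO2 libraries (x axes). Points are libraries and horizontal lines are group means. The ratio to *Mir34a* is highest in the 3 Dnmt1 KO libraries of day 9, at 8.52 to 8.86.

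Across the 12 group means of log2(RPM + 1) after TMM scaling, *Mir34b* and *Mir34c* were alike (Pearson r = 0.93), and *Mir34b* was the miRNA feature second most like *Mir34c* of 260 compared. *Mir34a* was in place 58 (r = 0.63). Outside the family, the features most like *Mir34c* were *Mir21* (r = 0.97), *Mir322* (0.92), *Mir503* (0.91), *Mir145* (0.905) and *Mir31* (0.904). Those most like *Mir34b* were *Mir21* (0.92), *Mir196b* (0.90), *Mir31* (0.89), *Mir1983* (0.88) and *Mir145* (0.87). *Mir34a* was closest to a different set, *Mir455* (0.90), *Mir1199* (0.89), *Mir190* (0.84), *Mir301* (0.82) and *Mir200a* (0.81). These values describe 12 groups that share libraries, depth and scaling between features.

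Markers of fibroblast or mesenchymal cells, a kind of cell used as feeders, moved with the pair on chromosome 9. Of 8 listed miRNAs 7 were in the table, 6 had reads, and *Mir199a-1* was at 0 in all 12 groups (*Mir199a-2* also in control of day 25). Their summed level was 25604 to 27911 RPM in Dnmt1 KO of day 3 against 17202 to 17431 RPM in control, and 32568 to 37951 against 18165 to 24009 RPM on day 9. All 6 were higher in the Dnmt1 KO mean on days 3, 6, 9 and 11, by 1.22 to 1.73 times in the sum. On day 1 the sum was 0.938 times control and 4 of 6 were higher, and on day 25 it was 0.733 times control and 3 of 6 were higher. The median log2 difference of the miRNA features tested was −0.05, 0.24, 0.11, 0.32, 0.24 and −0.20 on days 1, 3, 6, 9, 11 and 25. The shared pattern is therefore not particular to these markers. In control cells the mean sum was 18705 RPM on day 1 and 2710.1 RPM on day 25, whereas on day 25 *Mir34c* was at 88.8% of its day 1 control level, *Mir34b* at 105% and *Mir34a* at 114%. The summed blood cell markers (4 of 4 features with reads, *Mir223* at 0 on day 25) were 0.855 times control on day 1, 1.39 times on day 3 with overlapping ranges, 1.53 times on day 6, 2.25 times on day 9, 2.82 times on day 11 and 0.776 times on day 25. The part of other cells in the differences was not tested. In bulk libraries, fewer cells of a type and less RNA per cell cannot be told apart.

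The AGO2 libraries give the share of each member among the small RNAs pulled down with Argonaute. RPM does not measure the amount that Argonaute carried. Genotypes are those of the titles, and by the tags every direction here would be the opposite. *Mir34a* held 821, 664, 658 and 612 RPM in Dnmt1 KO and 444, 475, 458 and 414 RPM in control (replicates 1 to 4). Every Dnmt1 KO library was above every control, by 1.54 times in the mean. *Mir34c* held 1434, 1929, 1378 and 2215 RPM against 1325, 1005, 709.6 and 952 RPM, which is 1.74 times and apart by a narrow margin. *Mir34b* held 203, 147, 224 and 159 RPM against 114, 155, 73.8 and 71.0 RPM, or 1.77 times, and overlapped. On the deposited RPM the exact two-sided permutation test gave p = 0.0286 for *Mir34a* and *Mir34c*, the smallest that 4 against 4 libraries allow, and p = 0.0571 for *Mir34b*. This test regroups all 8 libraries freely. Regrouped only within replicates 1 and 2 and within replicates 3 and 4, which formed 2 sets as described below, the exact permutation p was 0.0556 for *Mir34a* and *Mir34c*, the smallest that 36 arrangements allow, and 0.111 for *Mir34b*. Of the 456 features tested in AGO2, 37.5% were apart between the groups.

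**Figure D4:**
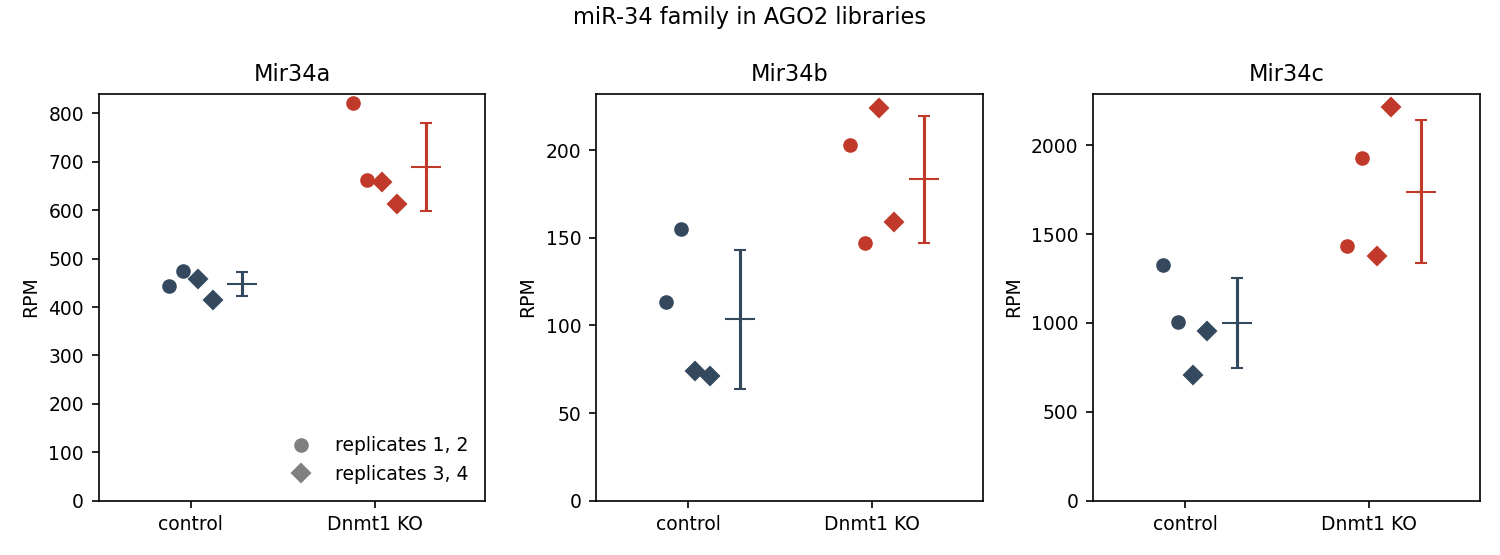
RPM of each member in the 8 AGO2 libraries (y axis, linear from 0) by genotype (x axis). Circles are replicates 1 and 2, diamonds replicates 3 and 4, and the mark beside them gives the mean and 1 SD (n = 4). The Dnmt1 KO points of *Mir34a* and *Mir34c* lie above all their control points, and those of *Mir34b* overlap with them.

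The AGO2 difference depended on the scaling. After TMM scaling no member was called by limma, with unadjusted p-values of 0.040 to 0.057. The log2 differences were 0.36 ± 0.16 for *Mir34a* (adjusted p = 0.12), 0.55 ± 0.23 for *Mir34c* (adjusted p = 0.092) and 0.62 ± 0.27 for *Mir34b* (adjusted p = 0.10), where 24.8% of features were called higher and 11.6% lower. On the deposited RPM they were 0.61, 0.81 and 0.87, and all 3 were called by limma (adjusted p = 0.0158, 0.0283 and 0.0472). The share of all features called without TMM scaling was not counted, so these calls have no background beside them. Without the filter on low values, which brings rare features into the scaling, all 3 turned to −0.55, −0.36 and −0.28 (adjusted p = 0.67 to 0.82). With the scaling factors kept as they were, the same change of filter left the differences at 0.36, 0.55 and 0.62. The median log2 difference over all AGO2 features was 0.10 after TMM scaling and 0.34 without it. Over the miRNA features tested it was 0.21 after TMM scaling. Depth was unequal between the genotypes, as given above, and its part in the difference was not tested.

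Replicates 1 and 2 of the AGO2 libraries deviated together and opposite to replicates 3 and 4, so the difference was also taken within each set. *Mir34a* was 1.62 times control in replicates 1 and 2 and 1.46 times in replicates 3 and 4. *Mir34c* was higher by 44.3% and 116% in the same sets, and *Mir34b* by 30.3% and 165%, so that the means of both sets gave the same direction for every member. In replicates 1 and 2 the libraries of *Mir34b* overlapped between the genotypes. These values are on the deposited RPM, where the median log2 difference of all AGO2 features was 0.34. With this split as a term in the fit no member was called (adjusted p = 0.066 to 0.088). In AGO2 the mesenchymal sum was 4936 to 5890.4 RPM in Dnmt1 KO and 2037 to 4139.6 RPM in control, and the blood cell sum was 3.21 times control. Within AGO2 libraries the RPKM ratio of *Mir34c* to *Mir34b* was 7.06 to 14.6 in control and 6.70 to 15.2 in Dnmt1 KO (n = 4 each), below the group means of days 1 to 11. The 2 libraries labelled "none" held 35 and 8 reads of *Mir34c*, 12 and 3 of *Mir34a* and 3 and 0 of *Mir34b*, in control and Dnmt1 KO, from totals of 57155 and 9830 reads. At that depth a count of 0 allows up to 305 RPM (3 reads), and the labels do not say what these libraries are.

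In the 4 PGC libraries all 3 members lay below the lowest of the 18 control ESC libraries without the R1 suffix. For *Mir34b* in E13.5 F this was within counting error. How many of all features lay below in the same way was not counted. The low level is therefore not shown to be particular to the family. *Mir34a* was at 21.0 RPM in E13.5 F (59 reads), 24.5 RPM in E13.5 M (73 reads), 7.57 RPM in E14.5 F (26 reads) and 8.65 RPM in E14.5 M (15 reads). The lowest of the 18 control ESC libraries held 337 RPM, which is 13.8 times the highest PGC value. *Mir34c* was at 592 RPM in E13.5 F (95% Wilson interval 564 to 621), 198 RPM in E13.5 M (182 to 214), 64.9 RPM in E14.5 F (56.9 to 74.0) and 50.7 RPM in E14.5 M (41.2 to 62.5). The lowest control ESC library held 1017 RPM, or 1.72 times the E13.5 F value and 15.7 times that of E14.5 F. *Mir34b* was at 51.5, 11.8, 4.95 and 6.92 RPM in the same order, against at least 52.8 RPM in these control ESC libraries (interval in E13.5 F 43.8 to 60.6). In the R1-suffixed control libraries of day 1, *Mir34b* went down to 35.9 RPM, below the E13.5 F value. Intervals cover counting error only, and each PGC group is 1 library, so no test was made.

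**Figure D5:**
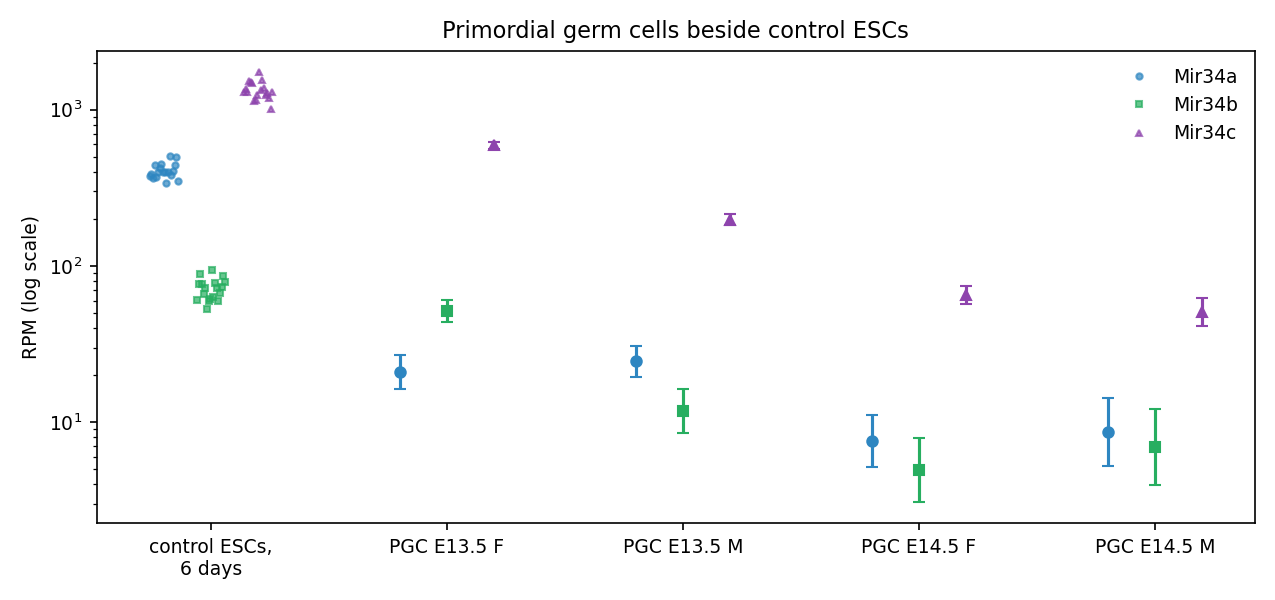
RPM (y axis, log scale) of each member in the 18 control ESC time course libraries and in the 4 PGC libraries (x axis). Points are libraries, and bars on the PGC points are 95% Wilson intervals for counting error. The E13.5 F library lies highest of the PGC libraries for *Mir34b* and *Mir34c*, at 51.5 and 592 RPM.

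The E13.5 F library stood apart for the pair on chromosome 9, and its mesenchymal marker sum was also the highest of the PGC libraries (16689 RPM, against 6752 in E13.5 M, 4319.6 in E14.5 F and 4496 in E14.5 M). According to the study's methods PGCs were sorted for an Oct4-GFP reporter. The part of mesenchymal cells in the value was not tested. The R1-suffixed file of the same E13.5 F name was shallow and held 2 reads of *Mir34c* and 0 of *Mir34b* in 114631 reads. That is 17.4 RPM of *Mir34c* (4.78 to 63.6), far below the 592 RPM (564 to 621) of its namesake. The R1-suffixed E13.5 M file held 0 reads of all 3 members in 60317 reads, where a count of 0 allows up to 49.7 RPM. Its namesake held 198 RPM of *Mir34c* (182 to 214). For *Mir34c* both E13.5 files thus conflicted with their namesakes beyond counting error. The R1-suffixed E14.5 M file had 1328606 reads and also conflicted with its namesake. *Mir34c* was at 159.6 RPM (139 to 183), against 50.7 RPM, and *Mir34a* at 27.1 RPM (19.6 to 37.5), against 8.65 RPM (5.24 to 14.3), with intervals that do not overlap. Of the feature counts of the R1-suffixed PGC files, 89.7 to 96.4% were even. The intervals and limits of these files take each read as separate, and are too narrow if reads were counted in pairs. The ESC miRNA markers summed to 12182 to 24363 RPM in the 4 PGC libraries without the suffix.

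The miR-449 relatives, which share the 5p seed shown above, lie inside the gene *Cdc20b* on chromosome 13 and were rare. *Mir449a* group means were 1.88 to 17.3 RPM in the 12 groups and those of *Mir449c* 1.33 to 18.4 RPM. *Mir449b* had at most 2 reads in any of the 36 libraries. On day 6 both tested relatives were called lower in Dnmt1 KO, *Mir449c* by −0.99 ± 0.23 (adjusted p = 0.0012) and *Mir449a* by −0.91 ± 0.32 (adjusted p = 0.034), where 9.33% of all features were called lower. On day 9 *Mir449c* was called lower (−1.07 ± 0.23, adjusted p = 0.00057) and *Mir449a* was not (−0.03 ± 0.32, adjusted p = 0.98), where 6.12% of all features were. Averaged over the days *Mir449c* was called lower (−0.41 ± 0.09, adjusted p = 0.00067) and *Mir449a* was not (−0.10 ± 0.13, adjusted p = 0.64). In AGO2 only *Mir449a* could be tested (0.63 ± 0.63, adjusted p = 0.50).

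Other miRNAs tied to p53 moved in both directions. Of 12 listed, 9 were in the table and 7 were tested, and averaged over the days 3 were higher and 3 lower, where 16.6% of all features were called higher and 10.1% lower. The median log2 difference was −0.13, against 0.02 over all features. *Mir143* (0.54 ± 0.04, adjusted p = 8e-14) and *Mir215* (1.36 ± 0.15, adjusted p = 1.2e-09) were higher. *Mir141* (−0.55 ± 0.07, adjusted p = 1.6e-08) and *Mir200c* (−0.59 ± 0.09, adjusted p = 1.6e-06), of the epithelial miR-200 family, were lower. In AGO2, where 24.8% of all features were called higher and 11.6% lower, 2 of 7 were higher and 2 lower. *Mir215* held 25.5 ± 4.27 RPM in Dnmt1 KO and 4.51 ± 0.79 in control (n = 4, adjusted p = 4.2e-05), and *Mir143* 4054 ± 309.6 against 1554 ± 211 RPM (adjusted p = 0.00025), whereas *Mir200c* (adjusted p = 0.032) and *Mir141* (adjusted p = 0.043) were lower. *Mir143* and *Mir145* also stand on the mesenchymal marker list.

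Of 16 miRNAs whose promoters are known to be methylated in tumours, 13 were in the table and 9 were tested. Averaged over the days 5 were higher, where 16.6% of all features were, and 4 did not pass the test. *Mir10a* (0.13 ± 0.05, adjusted p = 0.046), among those called higher, also stands on the mesenchymal marker list. The median log2 difference was 0.13. *Mir335* (0.34 ± 0.04, adjusted p = 9.2e-10) and *Mir193* (0.76 ± 0.09, adjusted p = 1.6e-08) had the smallest adjusted p-values. In AGO2, 1 of 8 tested was higher (*Mir335*, 0.60 ± 0.20, adjusted p = 0.043) and 1 was lower (*Mir148a*, −0.86 ± 0.24, adjusted p = 0.021), with a median of −0.05, against 24.8% and 11.6% of all features. These members were chosen with earlier results of these libraries known, and the counts are descriptions.

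The R1-suffixed libraries of days 1 to 11 hold 278508 to 1994554 reads, 95.4 to 96.9% of their feature counts were even, and 21 of 30 correlated most with the library of the same name, so they were not taken as an independent repeat. In them *Mir34c* was apart and higher in Dnmt1 KO on 5 of 5 days (1.18 to 1.67 times), *Mir34b* on 3 of 5 (1.33 to 1.72 times over all 5) and *Mir34a* on 1 of 5 (0.967 to 1.40 times over all 5). Of all features, 15.7% were apart in this set on day 1, 18.9% on day 3, 28.5% on day 6, 29.9% on day 9 and 22.3% on day 11.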

How the data were processed

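Small RNA of 83 libraries was analysed. The authors trimmed reads with Trim Galore 0.3.5, mapped them with Bowtie2 2.2.9 to NCBIM37, kept reads of 20 to 24 nt and quantified features in SeqMonk; whether strand was used is not stated in the sources used here. The deposited values are RPKM, although the table's name speaks of counts. RPM was obtained as RPKM times feature length over 1000 bases, and the reads behind each value were read back from the smallest step of each library (100% of low values whole within 5%).

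The planned main test was limma-trend (limma 3.58.1, R 4.3.3) of log2(RPM + 1) values scaled by TMM (own implementation, 30% of ratios and 5% of abundances trimmed), for features with at least 10 RPM in at least 3 libraries: 2582 in the time course (36 libraries, 12 group means) and 456 in AGO2 (8 libraries, own fit). Adjusted p-values are Benjamini-Hochberg over all features of a comparison, with a threshold of 0.05, two-sided. The script was checked on simulated reads. Permutation tests used 100000 resamples within days, or all exact regroupings for AGO2. A count model was not used as the main test, because the values are RPKM; voom on the reads read back was run as an alternative. The authors named DESeq2 and an intensity difference filter for their own comparisons.

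Replicate numbers were checked for pairing. Same-numbered time course libraries did not deviate together (r = −0.07 to 0.05 over 6 days), whereas the 4 AGO2 pairs did (r = 0.19 to 0.39), as did other pairs within replicates 1 and 2 or within 3 and 4 (0.22 to 0.39), with −0.46 to −0.06 between these sets. Named features were the 3 members, the 5 features most like each, and up to 2 per direction of each list by adjusted p. List members that are also cell type markers were named as such. The members and lists were chosen with earlier results of these data known.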

Additional observations from a re-analysis of the deposited data

Results flagged for a closer look

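The difference between Dnmt1 KO and control changed between day 11 and day 25 for every member. The change of the log2 difference was −1.17 for *Mir34b* (from 0.51 to −0.66), −0.70 for *Mir34a* (from 0.26 to −0.44) and −0.57 for *Mir34c* (from 0.48 to −0.09), each called by the test of the difference itself. In that comparison 9.84% of all features were called lower, and the median change of the miRNA features tested was −0.27. On day 25 the libraries held 521066 to 815523 reads and the mesenchymal marker sum in control cells was 2710.1 RPM, against 18705 RPM on day 1. Whether either moved the difference was not tested.

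In the AGO2 groups of 4, no member had a library that stood apart by Dixon's test (6 groups tested).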

How the results depend on the processing

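Of 432 alternative values for 39 results, 380 kept direction and side of the threshold, as did 321 of 348 values with 1 library left out. The values below are log2 differences, and the cause of each change was not tested. On deposited RPM without TMM scaling, *Mir34b* reversed on day 1 (0.065) and in control day 25 minus day 1 (0.089) and *Mir34a* on day 9 (−0.0033), *Mir34a* on day 3 (0.35), *Mir34b* on day 11 (0.43) and *Mir34c* in control day 25 minus day 1 (−0.18) lost their calls, and in AGO2 *Mir34a*, *Mir34c* and *Mir34b* gained them (0.61, 0.81 and 0.87). Per 1000000 miRNA reads, *Mir34b* reversed on day 1 (0.13) and in control day 25 minus day 1 (0.12) and *Mir34a* on day 9 (−0.036) and in the change from day 1 to day 11 (−0.039), *Mir34a* on day 3 (0.30), *Mir34b* on day 11 (0.41) and *Mir34c* in control day 25 minus day 1 (−0.15) lost their calls, and AGO2 gained them (0.63, 0.82 and 0.89). With median-ratio factors *Mir34a* reversed on day 6 (−0.083) and *Mir34c* gained a call from day 1 to day 11 (0.42). With a pseudocount of 0.5 RPM *Mir34a* lost day 3 (0.37).

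With a filter of 1 RPM, *Mir34b* reversed on day 1 (0.051), *Mir34a* on day 6 (−0.053) and in control day 25 minus day 1 (−0.25) and *Mir34c* in control day 11 minus day 1 (0.048), and *Mir34a* on day 3 (0.35), *Mir34c* on day 6 (0.33) and *Mir34b* on day 11 (0.55) lost their calls. With no filter the same results moved to 0.11, −0.035, −0.18 and 0.13, and to 0.33, 0.35 and 0.56, and AGO2 reversed (*Mir34a* −0.55, *Mir34c* −0.36, *Mir34b* −0.28). With the scaling factors kept, both filters left only *Mir34a* on day 3 (0.37) and *Mir34b* on day 11 (0.51) without their calls, where more features were tested. With each day fitted alone *Mir34a* lost day 3 (0.39) and day 25 (−0.44) and gained day 11 (0.28). In R1-suffixed libraries *Mir34a* (−0.047) and *Mir34b* (0.43) reversed on day 1, and *Mir34b* lost day 3 (0.81) and day 11 (0.67). With voom *Mir34b* reversed on day 1 (0.018) and in control day 25 minus day 1 (0.0022). Without day 25 the mean RPM difference of *Mir34a* gained a call (46.9 RPM).

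With 1 library left out, the ranges that held a changed call or sign were 0.32 to 0.43 (*Mir34a*, day 3), −0.13 to 0.14 (*Mir34a*, day 6), −0.048 to 0.20 (*Mir34a*, control day 25 minus day 1), −0.20 to 0.11 (*Mir34b*, day 1), 0.44 to 0.65 (*Mir34b*, day 11), 0.46 to 0.71 (*Mir34b*, day 1 to day 11), −0.19 to 0.084 (*Mir34b*, control day 25 minus day 1), 0.25 to 0.50 (*Mir34c*, day 6), −0.23 to 0.00088 (*Mir34c*, day 25), 0.32 to 0.49 (*Mir34c*, day 1 to day 11), −0.085 to 0.0047 (*Mir34c*, control day 11 minus day 1) and −0.38 to −0.20 (*Mir34c*, control day 25 minus day 1). The replicate block changed no call, with *Mir34c* at 0.40 averaged over the days (adjusted p = 1.7e-09) and at 0.55 in AGO2 (adjusted p = 0.0912). Scaling per miRNA reads, the kept scaling factors, the AGO2 split, regrouping within it and the run without day 25 were chosen after seeing the data. Depth limits *Mir34b* on day 25 and all members in the "none" and R1-suffixed E13.5 PGC libraries.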
